A study of Mus musculus with 4 samples.

Results

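The secretoglobin genes described here are Scgb1a1, Scgb1c1, Scgb3a1, Scgb3a2, Scgb2b24 and Scgb2b27, which are 6 of 19938 mouse genes with a value on the arrays. They were listed by name and not chosen by a threshold, and each is represented by the probe set that names this gene alone and has the highest mean over the 4 arrays. Nasal mucosa was lifted from the septum and turbinates of mice aged 8 weeks, and its total RNA was hybridised to Affymetrix arrays that probe whole transcripts. The 4 groups were Duox2-/- mice given flagellin, Duox2-/- mice given PBS, wild-type (Duox2+/+) mice given flagellin and wild-type mice given PBS, with 1 array per group. The labels give the strain of all groups as C56BL/6, the flagellin concentration as 5 ug/ml, the volume as 25 ul in each nostril and the time as 4 h. The sources used here do not say how the Duox2 allele was made, nor whether the RNA on an array came from a single mouse or from pooled mice. With no replicate in any group, each difference below is between single arrays and carries no p-value unless a model is named, and the number of arrays limits the precision.

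Secretoglobins are small secreted proteins that pair into dimers held by disulphide bonds and enclose a cavity for greasy ligands. Scgb1a1, the club cell secretory protein or uteroglobin, and Scgb3a1 and Scgb3a2 are products of secretory cells of the airway surface. Scgb1c1 is a gene of the glands of the olfactory mucosa, as described in rat. Scgb2b24 and Scgb2b27 encode beta-gamma subunits of the androgen-binding proteins of mouse saliva and tears, which pair with alpha subunits such as the product of Scgb1b27. Flagellin builds bacterial flagella and is recognised by the Toll-like receptor TLR5, and Duox2 is an epithelial enzyme that makes hydrogen peroxide.

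The androgen-binding genes lie in a cluster on chromosome 7 that in GRCm38.p6 holds 48 secretoglobin symbols, 35 of them protein coding, over 2837 kb. Scgb2b24 lies there on the minus strand at chr7:33737193-33739295 and Scgb2b27 at chr7:34011919-34013942. Scgb1c1 is on the same chromosome but outside the cluster, at chr7:140845565-140846769. Scgb3a1 is at chr11:49663595-49665118 and Scgb1a1 at chr19:9083642-9087956. The 250 bases before the RefSeq start of both androgen-binding members are shown here because these genes are neighbours of 1 family whose values after flagellin differed in size. Capitals mark TGTTTG, the core letters of a FOXA motif, and TATAA, the core of a TATA box, on either strand; the windows are chr7:33739296-33739545 and chr7:34013943-34014192 of GRCm38.p6, from RefSeq, read 5′ to 3′ along the minus strand.
Scgb2b24: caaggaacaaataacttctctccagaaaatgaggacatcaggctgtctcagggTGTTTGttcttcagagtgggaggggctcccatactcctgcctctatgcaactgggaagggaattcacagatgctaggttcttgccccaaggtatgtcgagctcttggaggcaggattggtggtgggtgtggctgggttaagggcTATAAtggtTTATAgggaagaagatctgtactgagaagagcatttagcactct
Scgb2b27: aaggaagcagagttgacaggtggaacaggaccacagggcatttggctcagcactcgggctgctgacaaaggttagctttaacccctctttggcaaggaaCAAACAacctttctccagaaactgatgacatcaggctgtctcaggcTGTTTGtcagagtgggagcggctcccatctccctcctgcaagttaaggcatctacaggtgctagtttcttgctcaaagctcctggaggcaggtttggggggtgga
The windows of Scgb2b24 and Scgb2b27 aligned over 158 bases, of which 133 were identical (84.2%). The neighbour Scgb2b26 was identical to Scgb2b27 at 90.4% of 177 aligned bases and to Scgb2b24 at 82.8% of 227. TGTTTG occurred 1 time before Scgb2b24 and 2 times before Scgb2b27, with 1 occurrence each before Scgb1c1 and Scgb3a1, and 16.0% of 32851 windows of the same length held it. TATAA occurred 2 times before Scgb2b24 and 0 times in the other 3 windows, against 22.8% of all windows. The windows of the androgen-binding members are offset, however. The forward TGTTTG, set in like letters in both, lay 197 bases before the start of Scgb2b24 but 105 before that of Scgb2b27. The Scgb2b27 window thus ends before the stretch that would match the TATAA letters of Scgb2b24, and that stretch was not searched. TTGCNNAA, a C/EBP motif, occurred 2 times before Scgb2b27 and 0 times in the other 3 windows, against 9.56% of all windows, and TTCNNNGAA, a STAT motif, 1 time before Scgb3a1 only, against 7.02%. A form of the NF-kB motif was in none of the 4 windows and in 1.41% of all. These matches describe letters within a fixed window and not bound sites.

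The arrays were comparable in median, from 6.48 to 6.56 on the log2 scale, but the interquartile range was 2.43 and 2.54 in the flagellin and PBS arrays labelled Duox2-/-, against 2.73 and 2.79 in the wild-type flagellin and PBS arrays. Duox2 itself was dim everywhere, with log2 values of 5.50 and 5.23 in the flagellin and PBS arrays labelled Duox2-/- and 5.12 and 4.95 in the wild-type flagellin and PBS arrays, so it was not lower under the knockout label. The position of its probe set relative to the change in the allele is unknown here, and genotypes are therefore given as labelled. Nasal epithelium was present in all arrays by its markers: Epcam, an epithelial adhesion protein, had log2 values between 9.72 and 9.89, Foxj1, the regulator of motile cilia, between 7.79 and 8.14, and Omp, the marker of olfactory neurons, between 11.85 and 12.16. Other tissues differed between arrays. All 9 skeletal muscle markers and all 3 tooth markers were at least 2-fold higher in the PBS array labelled Duox2-/- than in the wild-type PBS array. Of all genes, 1.34% were higher by that size. The 4 genes listed as a check on the flagellin response (Lcn2, Cxcl2, Il1b and Ccl20) were higher after flagellin in both genotypes, with median differences of 1.18 under the label Duox2-/- and 2.08 in wild type.

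The table has no background measure, so a gene was called bright enough to test when at least 1 array had a value of 6.52 or more, the median of all values. It was reached by 12471 of all 19938 genes. Of the 6 secretoglobin genes, Scgb1c1, Scgb2b27 and Scgb2b24 reached it. Scgb3a1, with a highest value of 6.36, fell just short, and Scgb1a1 and Scgb3a2 stayed at 4.30 and 4.44 or lower. The markers of surface secretory cells other than secretoglobins were bright, all 9 of 9 reaching the limit, among them Cyp2f2, a cytochrome P450 of club cells, at 12.51 to 12.90 and Bpifa1, an abundant airway secretion, at 12.53 to 12.73. Values of different probe sets are not compared as levels.

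**Figure D1:**
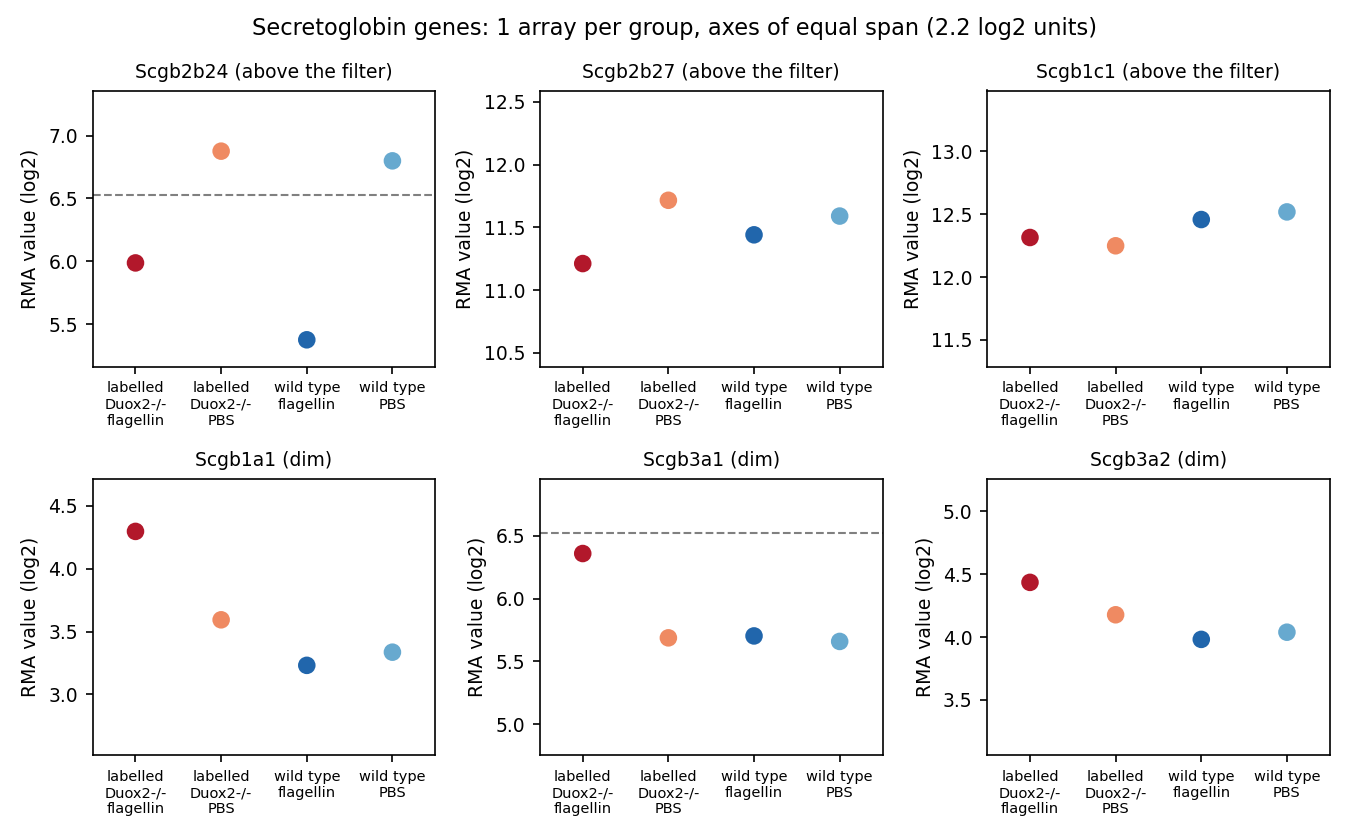
RMA value (log2) of each secretoglobin gene on the 4 arrays, 1 point per array, with vertical axes of the same span; the dashed line is the brightness limit of 6.52 where it falls within the axis. Scgb2b24 is below the limit on both flagellin arrays and above it on both PBS arrays, while Scgb1a1, Scgb3a1 and Scgb3a2 are highest on the flagellin array labelled Duox2-/-.

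The flagellin comparisons ask how the mucosa responds to a bacterial protein when the Duox2 gene is labelled as knocked out or wild type. Scgb2b24 was the secretoglobin gene with the largest difference, lower after flagellin in both genotypes. Its log2 value was 5.99 with flagellin and 6.88 with PBS in the arrays labelled Duox2-/-, and 5.37 with flagellin and 6.80 with PBS in wild type. Both flagellin values lay under both PBS values, and the PBS values of the genotypes were within 0.077 of each other. The difference was -0.89 in the arrays labelled Duox2-/-, or 1.85-fold lower, and -1.42 in wild type, or 2.68-fold lower. Because only its PBS values reached the brightness limit, Scgb2b24 entered the test through the groups in which it was high, and a filter on the mean over the arrays would have left it out.

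Scgb2b27, whose product is of the same subunit class, was lower after flagellin by less. Its log2 value was 11.21 with flagellin and 11.72 with PBS in the arrays labelled Duox2-/-, and 11.44 with flagellin and 11.59 with PBS in wild type. Again both flagellin values were under both PBS values. The differences were -0.50 in the arrays labelled Duox2-/- and -0.15 in wild type. Of the 12471 genes bright enough to test, 4.92% had a difference below that of Scgb2b27 in the arrays labelled Duox2-/-, and 16.1% in wild type. For Scgb2b24 these shares were 0.722% in the arrays labelled Duox2-/- and 0.0481%, or 6 genes, in wild type. Since Scgb2b24 is in that set through its PBS values alone, its shares only describe where it lay. Over all 19938 genes, 0.0552% were at least 2-fold lower in wild type, as Scgb2b24 was.

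Scgb1c1, the olfactory gland gene, had the smallest span of the 6 genes over the arrays, at 0.27. Its log2 value was 12.31 with flagellin and 12.25 with PBS in the arrays labelled Duox2-/-, and 12.46 with flagellin and 12.52 with PBS in wild type. Both wild-type values were above both values labelled Duox2-/-. The flagellin differences were 0.066 in the arrays labelled Duox2-/- and -0.061 in wild type, and values this bright are near the top of the range, where 99.7% or more of probe sets on each array were no brighter. Near that end an array may respond less than in proportion to the RNA, and how far this limits the differences of Scgb1c1 was not tested.

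The dim members were all highest on the same array. Scgb1a1 had log2 values of 4.30 with flagellin and 3.59 with PBS in the arrays labelled Duox2-/-, and 3.23 with flagellin and 3.34 with PBS in wild type. Its differences after flagellin were 0.70 in the arrays labelled Duox2-/- and -0.10 in wild type. Scgb3a1, a secretory product of larger airways, had 6.36 with flagellin and 5.69 with PBS in the arrays labelled Duox2-/-, and 5.70 with flagellin and 5.66 with PBS in wild type. The first array stood apart from the other 3, which lay within 0.044 of each other, and the differences after flagellin were 0.67 in the arrays labelled Duox2-/- and 0.044 in wild type, the wild-type direction turning after quantile renormalisation. Scgb3a2, which in mouse lung depends on the factor Nkx2-1, had 4.44 with flagellin and 4.18 with PBS in the arrays labelled Duox2-/-, and 3.98 with flagellin and 4.04 with PBS in wild type. Its differences were 0.26 in the arrays labelled Duox2-/- and -0.057 in wild type.

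Dim genes in general leaned the same way. Of 7467 genes under the limit, 58.6% were highest on the flagellin array labelled Duox2-/-, and their median difference after flagellin was 0.10 in the arrays labelled Duox2-/- and 0.033 in wild type. Within that set 0.937% of genes had a larger difference than Scgb1a1 in the arrays labelled Duox2-/-, 1.14% a larger one than Scgb3a1 and 23.9% a larger one than Scgb3a2. The value of Scgb3a2 was thus well inside the range of dim genes, and those of Scgb1a1 and Scgb3a1 were near its upper edge. All 3 were under the 2-fold size.

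**Figure D2:**
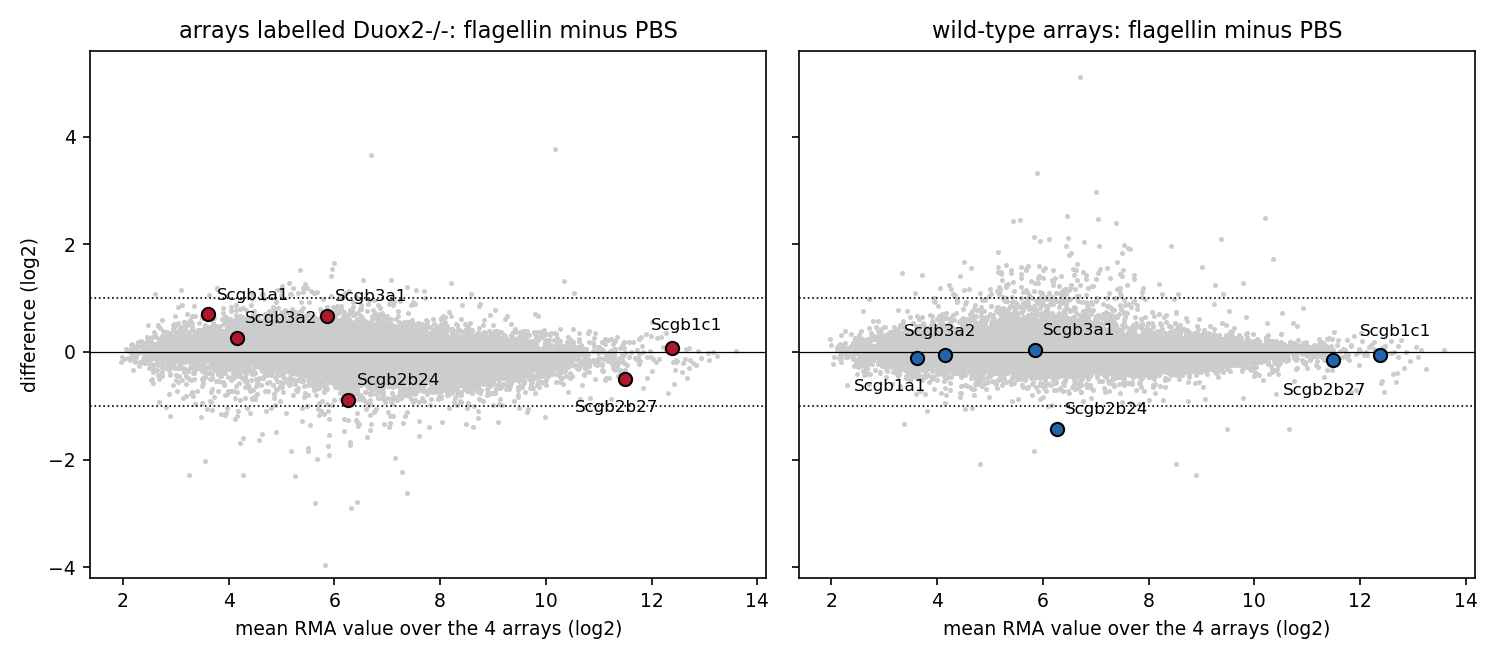
Difference after flagellin (log2, vertical) against the mean RMA value over the 4 arrays (log2, horizontal) for all 19938 genes (grey) and the 6 secretoglobin genes (coloured), with dotted lines at 2-fold. Scgb2b24 lies at -0.89 in the arrays labelled Duox2-/- and at -1.42 in wild type, and the 3 dim members lie between 0.26 and 0.70 in the arrays labelled Duox2-/- but between -0.10 and 0.044 in wild type.

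By the 2-fold size, 0 of the 3 secretoglobin genes tested were lower after flagellin in the arrays labelled Duox2-/-, where 0.505% of all tested genes were, and 1 of 3, Scgb2b24, was lower in wild type, where 0.0561% were. None was 2-fold higher, against 0.176% of tested genes in the arrays labelled Duox2-/- and 0.922% in wild type. Scgb2b24 is among the 3 tested genes through its PBS values alone, so the 1 of 3 only describes where it lay. Without the brightness limit the counts were 0 of 6 lower and 0 of 6 higher in the arrays labelled Duox2-/-, against 0.466% and 0.221% of all genes, and 1 of 6 lower and 0 of 6 higher in wild type, against 0.0552% and 0.838%. The median over all 6 genes was 0.16 in the arrays labelled Duox2-/- and -0.083 in wild type, beside -0.0072 and 0.0088 over all genes. Of the 6 genes, 4 were above 0 in the arrays labelled Duox2-/- and 1 in wild type. Of all genes, 48.7% were above 0 in the arrays labelled Duox2-/- and 52.1% in wild type. For dim genes these shares were 66.9% and 56.4%.

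An additive model in limma, in which flagellin shifts both genotypes equally and genotype shifts both treatments equally, was the test used. Its residual is the interaction of treatment and genotype, so it tests a shared shift and cannot test whether genotypes respond differently. That residual has 1 degree of freedom, and limma combines it with a prior variance estimated over all tested genes, with 7.48 degrees of freedom. Each SE and p below therefore rests mostly on other genes and not on the spread of the gene itself. Scgb2b24 fell by 1.16 on the log2 scale after flagellin (SE 0.16, limma adjusted p = 0.0308 over 12471 genes, lower in 2 of 2 genotypes), as 0.0401% of tested genes did, while 0.241% passed as higher. Since it entered that set through its PBS values alone, the fit over all 19938 genes, which has no such entry, is given beside it (limma adjusted p = 0.0186). The call was lost when each array was centred on its median (limma adjusted p = 0.106) and after cyclic loess (limma adjusted p = 0.213), although the estimate stayed at -1.17 and -1.19; under the other alternatives that kept the gene the adjusted p was 0.0186 to 0.0454, and the filter on the mean gave it no test. Scgb2b27 had an estimate of -0.33 (SE 0.14, limma adjusted p = 0.763) and Scgb1c1 one of 0.0027 (SE 0.13, limma adjusted p = 0.999). Neither passed.

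Comparing genotypes asks whether the label Duox2-/- went with other secretoglobin levels, at rest and after flagellin. With PBS, the differences of labelled Duox2-/- minus wild type were small, from -0.27 for Scgb1c1 to 0.26 for Scgb1a1, and none of the 3 tested genes reached 2-fold, against 1.13% of tested genes higher and 0.281% lower; without the limit it was 0 of 6, against 1.34% of all genes higher and 0.226% lower. Scgb2b27 was at 0.13, Scgb3a2 at 0.14, Scgb2b24 at 0.077 and Scgb3a1 at 0.029. The direction of Scgb2b24 and Scgb3a1 turned when arrays were centred on their medians, that of Scgb3a1 and Scgb3a2 after quantile renormalisation, and that of all 3 after cyclic loess. Dim genes as a whole had a median of 0.21 in this comparison, more than Scgb3a1 or Scgb3a2 had.

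After flagellin, the difference was 1.07 for Scgb1a1, 0.66 for Scgb3a1, 0.61 for Scgb2b24, 0.45 for Scgb3a2, -0.14 for Scgb1c1 and -0.23 for Scgb2b27. Scgb1a1 was the only one of the 6 past 2-fold, where without a brightness filter 0.476% of all genes were higher by that size and 1.18% lower, and it was under 2-fold after quantile renormalisation (0.96) and cyclic loess (0.89). The median over all dim genes was 0.28. The difference of Scgb2b24 came with PBS values that were nearly equal in the genotypes. None of the 3 tested genes reached 2-fold here, against 0.353% of tested genes higher and 1.65% lower. In the additive model the genotype shift was 0.34 for Scgb2b24 (SE 0.16, limma adjusted p = 0.235), -0.21 for Scgb1c1 (SE 0.13, limma adjusted p = 0.380) and -0.052 for Scgb2b27 (SE 0.14, limma adjusted p = 0.859), none of which passed, whereas 2.39% of tested genes passed as higher and 1.98% as lower.

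The response in the arrays labelled Duox2-/- minus that in wild type was 0.81 for Scgb1a1, 0.63 for Scgb3a1, 0.53 for Scgb2b24, 0.32 for Scgb3a2, 0.13 for Scgb1c1 and -0.35 for Scgb2b27. No test of this difference was possible with 1 array per group. None of the tested secretoglobins reached 2-fold, against 0.136% of tested genes above 0 by that size and 1.44% below, and without the limit 0 of 6 did, against 0.211% above and 1.38% below. The flagellin differences had opposite signs in 1 of the 3 tested members and 2 of the 3 dim ones, against 48.2% of tested and 46.7% of dim genes, and so in 3 of 6 against 47.7% of all genes. Both responses were downward for Scgb2b24, with the larger in wild type, and for Scgb2b27, with the larger under the label Duox2-/-.

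**Figure D3:**
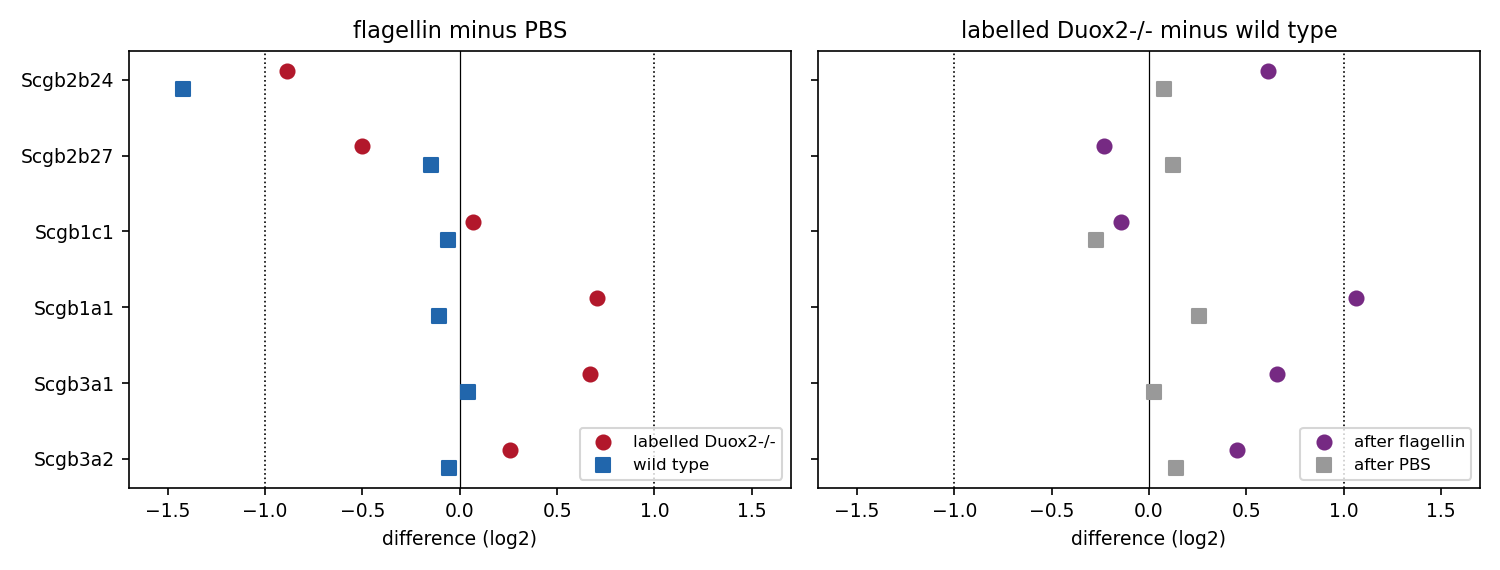
Differences (log2) of the 6 secretoglobin genes: flagellin minus PBS (left; circles, arrays labelled Duox2-/-; squares, wild type) and labelled Duox2-/- minus wild type (right; circles, after flagellin; squares, after PBS), with dotted lines at 2-fold. Scgb2b24 and Scgb2b27 are below 0 after flagellin in both genotypes, and after PBS all genotype differences lie between -0.27 and 0.26.

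The rest of the family gives the setting of the androgen-binding members. The arrays held 15 secretoglobin probe sets, 12 of them naming 1 gene and 3 naming several, and 5 reached the brightness limit. Of the 9 that do not represent a member, 2 reached it, and both belong to Scgb1b27, an alpha subunit gene near Scgb2b27. One Scgb1b27 probe set had log2 values of 11.91 with flagellin and 12.26 with PBS in the arrays labelled Duox2-/-, and 11.94 with flagellin and 11.93 with PBS in wild type. The other had 7.64 and 8.13 with flagellin and PBS in the arrays labelled Duox2-/-, and 7.54 and 7.55 in wild type. Both were highest on the PBS array labelled Duox2-/-, as Scgb2b27 was. The probe set with the largest span among the 9 names Scgb1b7, Scgb1b20 and Scgb1b29 together and was dim, at 2.59 with flagellin and 3.36 with PBS in the arrays labelled Duox2-/- and at 2.34 with flagellin and 2.43 with PBS in wild type. A probe set shared by Scgb2b11, Scgb2b7 and Scgb2b20 was also dim, at 5.19 and 5.57 with flagellin and PBS in the arrays labelled Duox2-/-, and 5.01 and 5.10 in wild type.

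Of the 10 probe sets of the chromosome 7 cluster, 9 were lower after flagellin under the label Duox2-/- (median -0.44), while 62.2% of tested genes were lower there with a median of -0.070. Of all genes 51.2% were lower, and 66.9% of dim genes were higher. Of the 10 probe sets, 6 were under the brightness limit, and those of them that name several genes are not among the dim genes counted. In wild type 8 of 10 were lower with a median of -0.090, against 50.4% of tested and 47.9% of all genes, and the lowest after Scgb2b24 was Scgb2b2 at -0.31. The highest value over the 4 arrays was on the PBS array labelled Duox2-/- for 8 of the 10 probe sets, those of Scgb1b27 counted separately, against 17.4% of tested and 22.9% of dim genes. This is also the array on which the muscle and tooth markers were highest on average, and their part in these values was not tested. The 20 gland secretion genes went both ways by genotype: in PBS 9 were above 0 (median -0.052), with 7 at least 2-fold higher and 1 lower, Pip at -1.29, and after flagellin 15 were above 0 (median 0.27), with 8 at least 2-fold higher. Of all genes, 56.3% were above 0 in PBS and 50.6% after flagellin. By the 2-fold size, 1.34% of all genes were higher and 0.226% lower in PBS, and 0.476% were higher after flagellin. The gland secretion genes were listed with earlier results of these data known, so their counts beside these shares only describe them. The largest difference among the gland secretion genes was that of Bpifb9a, a secreted BPI-fold protein, at 12.24 and 12.24 in the flagellin and PBS arrays labelled Duox2-/- and at 7.56 and 5.47 in the wild-type flagellin and PBS arrays. In bulk mucosa fewer gland cells and less RNA per gland cell cannot be told apart. Some genes of the cluster share a probe set, in each case with genes of their own subunit class, so the probe sets cannot be counted as independent. A second probe set that names Scgb2b27 also names Scgb2b26. It gave -0.36 in the arrays labelled Duox2-/- and 0.031 in wild type, against -0.50 and -0.15 for the probe set of Scgb2b27 alone.

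**Figure D4:**
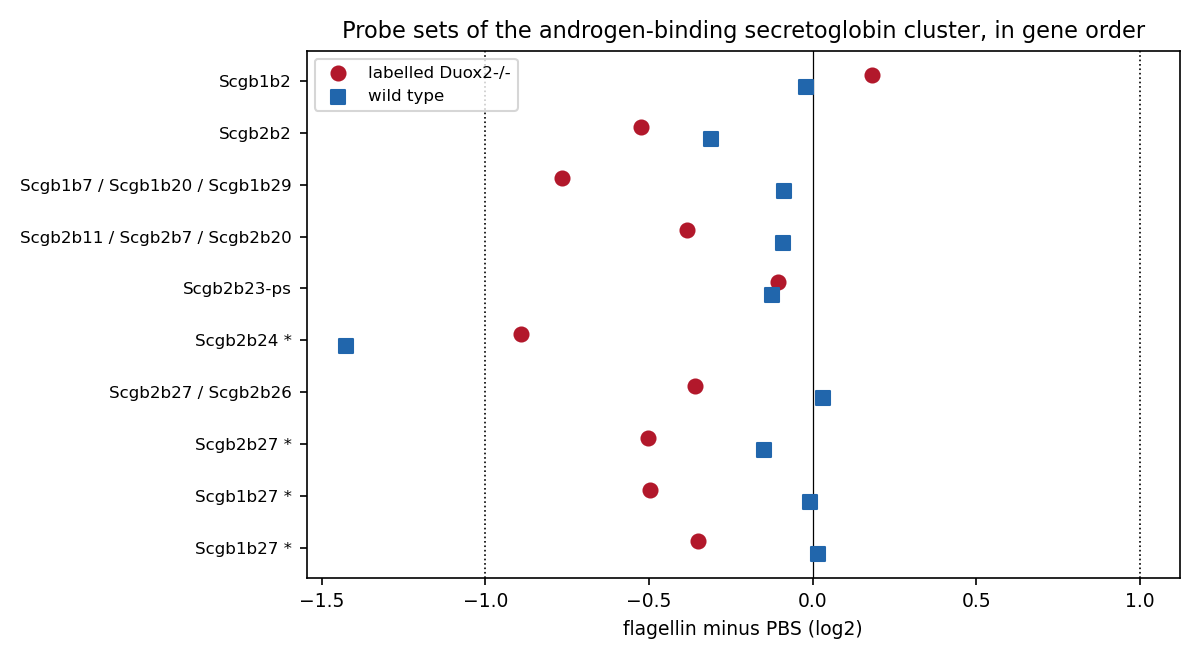
Difference after flagellin (log2) of the 10 probe sets of the chromosome 7 androgen-binding cluster, listed in gene order (circles, arrays labelled Duox2-/-; squares, wild type; an asterisk marks probe sets that reached the brightness limit), with dotted lines at 2-fold. In the arrays labelled Duox2-/- 9 of 10 lie below 0, and in wild type Scgb2b24 is the only one past 2-fold.

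Gene groups around the secretoglobins were described by counts. Of 20 matched gland secretion genes, 10 were higher after flagellin in the arrays labelled Duox2-/- and 9 in wild type, with medians of -0.040 and -0.012. These counts were near the shares of all genes, 48.7% in the arrays labelled Duox2-/- and 52.1% in wild type. The extremes of the gland secretion genes in wild type were Bpifb9b and Pip. Bpifb9b, another BPI-fold gene, was at 8.76 with flagellin and 6.26 with PBS in wild type. Pip, a protein of secretory glands, was lower by 2.29 in wild type. Its log2 values were 8.49 with flagellin and 8.94 with PBS in the arrays labelled Duox2-/- and 7.94 with flagellin and 10.23 with PBS in wild type. Of the 9 surface secretory cell markers, 5 were higher after flagellin in the arrays labelled Duox2-/- (median 0.043) and 3 in wild type (median -0.0071), and 0 were past 2-fold in either. Of tested genes, 62.2% were lower after flagellin in the arrays labelled Duox2-/- and 50.4% in wild type. Bpifb1, a secreted BPI-fold protein, led the 9 markers in both, at 0.89 in the arrays labelled Duox2-/- and 0.26 in wild type. In the comparison of genotypes these markers were lower under the label Duox2-/-, with 9 of 9 below 0 in PBS (median -0.50) and 8 of 9 below 0 after flagellin (median -0.35). Of tested genes, 57.7% were below 0 in PBS and 66.8% after flagellin. The dim Scgb1a1, Scgb3a1 and Scgb3a2 were above 0 in both as deposited, as were 79.8% of dim genes in each.

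None of the 7 transcription factors reported at secretoglobin promoters reached 2-fold in any comparison, a size that at most 1.65% of tested genes reached in either direction, and their median after flagellin was 0.070 in the arrays labelled Duox2-/- and 0.056 in wild type. Foxa2, which binds the Scgb1a1 promoter, had log2 values of 6.63 with flagellin and 6.35 with PBS in the arrays labelled Duox2-/- and 6.02 with flagellin and 5.98 with PBS in wild type. Foxa1, its paralog, ran the other way, at 7.75 with flagellin and 8.11 with PBS in the arrays labelled Duox2-/- and 8.40 with flagellin and 8.37 with PBS in wild type. Nkx2-1 was dim on all 4 arrays, between 5.40 and 5.83. Cebpd, a factor of acute phase responses, had the largest wild-type flagellin difference of the 7, at 0.48, against 0.043 in the arrays labelled Duox2-/-, and was dim.

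Among 4 genes reported to bind or take up secretoglobins, Marco, a scavenger receptor of macrophages reported to bind Scgb3a2, was dim and highest on the flagellin array labelled Duox2-/-, at 6.00 with flagellin and 5.33 with PBS in the arrays labelled Duox2-/- and 5.17 with flagellin and 5.08 with PBS in wild type. Lrp2, an endocytic receptor, was between 7.72 and 8.19, its partner Cubn between 5.81 and 5.89, and Lmbr1l between 7.07 and 7.23. No gene of this group, of which Cubn was dim as Marco was, reached 2-fold in any comparison. At most 1.65% of tested genes reached that size in either direction.

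Profiles over the 4 arrays were matched for the members that spanned at least 1 log2 unit. The candidates were 390 named genes with a span of that size that reached the brightness limit on at least 1 array. Likeness was the Euclidean distance between log2 profiles after each gene's own mean was subtracted. Nearest to Scgb2b24 were B4galnt2, a glycosyltransferase gene (0.37), S100z, a calcium-binding protein gene (0.72), and Nr1d1, a clock repressor gene (0.74). B4galnt2 had log2 values of 7.28 with flagellin and 8.04 with PBS in the arrays labelled Duox2-/- and 6.86 with flagellin and 7.78 with PBS in wild type. Nearest to Scgb1a1 were the transcription factor gene Tcf15 (0.091), Padi3, a peptidylarginine deiminase gene (0.13), and the acyltransferase gene Zdhhc22 (0.16). Each of these reached the brightness limit only on the flagellin array labelled Duox2-/-, so that they were highest there follows from how they were selected. With 4 arrays such likeness describes these arrays alone.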

How the data were processed

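The authors made the deposited log2 values with RMA in Affymetrix Expression Console 1.1, per the submitters' processing notes; no source used here names the genome build of the probe sets. Values ran from 1.43 to 13.7 and were not normalised further. Of 35556 probe sets, 21789 named 1 gene, 1621 several and 12146 none in the platform annotation, with symbols updated through gene IDs. This gave 19938 genes, 999 of them with several probe sets, of which the one with the highest mean was used. Genes without a current gene ID kept the annotation's symbol. Genes were tested if their highest value reached 6.52 (12471 genes). Differences of log2 values have no p-value, and a size of 2-fold was counted. The additive model used limma 3.58.1 in R 4.3.3 (lmFit, eBayes, Benjamini-Hochberg at 0.05, 1 residual degree of freedom, prior degrees of freedom 7.48, prior SD 0.136) and was tested on simulated data. Promoter windows were aligned with Biopython 1.88 (global, end gaps free). The members and gene lists were chosen with earlier results of these data known. Named genes were the 6 members, the other secretoglobins with the largest spans, the extremes of each list and the 3 nearest profiles; other genes named as examples were picked after their values were seen. Markers were also fixed for ciliated, basal, squamous and olfactory supporting cells and for neutrophils. Alternatives were 3 normalisations, the mean of a gene's probe sets, no filter, a filter on the mean, and a trended eBayes.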

Additional observations from a re-analysis of the deposited data

Results flagged for a closer look

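Of the 6 secretoglobin genes, 3 had flagellin differences of opposite sign in the genotypes, and in none was this difference tested, since each rests on single arrays. Scgb1a1 was at 0.70 in the arrays labelled Duox2-/- and at -0.10 in wild type. Scgb3a2 was at 0.26 in the arrays labelled Duox2-/- and at -0.057 in wild type. Both were under the brightness limit on all 4 arrays. Scgb1c1 was at 0.066 in the arrays labelled Duox2-/- and at -0.061 in wild type, and the wild-type sign turned after quantile renormalisation (0.0057). Opposite signs were common, in 48.2% of tested genes and 46.7% of dim genes.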

How the results depend on the processing

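No paired analysis was possible because each group had 1 array, and leaving out an array was not run because the additive model would have no residual degree of freedom. Counts are of genes, with the reported value in brackets. With each array centred on its median, limma called 7 (30) higher and 0 (5) lower for flagellin and 53 (298) higher and 108 (247) lower for genotype, and the flagellin estimate of Scgb1c1 was -0.0062 (0.0027). After cyclic loess limma called 0 higher and 0 lower for flagellin and 1 higher and 0 lower for genotype, and the genotype estimate of Scgb2b27 was 0.0014 (-0.052). At an unadjusted limma p under 0.05 there were 810 (805) genes for flagellin and 3665 (2888) for genotype after centring, where the genotype calls fell, and 687 for flagellin and 2340 for genotype after cyclic loess. Quantile renormalisation gave 2 lower for flagellin, 142 higher and 129 lower for genotype, and a genotype estimate of 0.00077 for Scgb2b27. A trended eBayes gave 53 higher and 28 lower for flagellin and 608 lower for genotype. With no filter, limma called 52 higher and 8 lower for flagellin and 1402 higher and 477 lower for genotype. The 2-fold counts were then 44 (22) higher after flagellin in the arrays labelled Duox2-/-, 11 (7) lower after flagellin in wild type, 95 (44) higher by genotype after flagellin, 267 (141) higher by genotype in PBS, and 42 (17) higher and 276 (180) lower for the difference of responses. With a filter on the mean, limma called 18 higher for flagellin and 187 higher for genotype. The 2-fold counts were 11 higher and 36 (63) lower after flagellin in the arrays labelled Duox2-/-, 64 (115) higher and 4 lower after flagellin in wild type, 22 higher by genotype after flagellin, 68 higher and 20 (35) lower by genotype in PBS, and 9 higher and 109 lower for the difference of responses. The filters change which genes are tested; the cause of the other shifts was not tested. Signal over background is unknown here, which limits the dim secretoglobins most.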

Other observations

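Markers of other cell types and tissues differed between the arrays on which the secretoglobins were compared, and their part in the secretoglobin values was not tested. Skeletal muscle markers had a median difference after flagellin of -2.24 in the arrays labelled Duox2-/-, with 7 of 9 at least 2-fold lower, and of 1.37 in wild type, with 5 of 9 at least 2-fold higher. The 3 tooth markers were all at least 2-fold lower in the arrays labelled Duox2-/- (median -2.31) and had a median of 0.12 in wild type. Of all genes, 0.466% were at least 2-fold lower in the arrays labelled Duox2-/- and 0.838% at least 2-fold higher in wild type. Olfactory neuron markers were higher after flagellin in 7 of 7 in the arrays labelled Duox2-/- (median 0.35) and in 6 of 7 in wild type (median 0.050). Of all genes, 48.7% were higher in the arrays labelled Duox2-/- and 52.1% in wild type. The mean log2 value of 8 neutrophil markers was 7.14 with flagellin and 7.05 with PBS in the arrays labelled Duox2-/-, and 7.78 with flagellin and 6.35 with PBS in wild type. Their median difference after flagellin was 0.23 in the arrays labelled Duox2-/-, with 6 of 8 higher, and 1.53 in wild type, with 7 of 8 higher. Ltf was the lowest of them in both, at -0.76 in the arrays labelled Duox2-/- and -0.00185 in wild type. For 4 basal cell markers the mean log2 value was 7.57 with flagellin and 8.28 with PBS in the arrays labelled Duox2-/-, and 9.09 with flagellin and 8.93 with PBS in wild type. Krt5, the keratin of basal cells, was lower under the label Duox2-/- by a log2 difference of -1.02 in PBS and -2.29 after flagellin. The 7 squamous markers averaged 5.96 with flagellin and 6.37 with PBS in the arrays labelled Duox2-/-, and 8.14 with flagellin and 6.99 with PBS in wild type. Ciliated cell markers were lower after flagellin in both genotypes, 7 of 8 in the arrays labelled Duox2-/- (median -0.26) and 8 of 8 in wild type (median -0.21), where 62.2% of tested genes were lower in the arrays labelled Duox2-/- and 50.4% in wild type. The 2 matched markers of olfactory supporting cells, Cyp2g1 and Ermn, had median differences after flagellin of 0.35 in the arrays labelled Duox2-/- and 0.029 in wild type.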
